A study of Homo sapiens with 15 samples.

Results

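ND2 and ATP6 are protein genes of the mitochondrial genome, and the values below describe their transcripts in SKOV3ip1 cells, which come from a human ovarian cancer of epithelial type. They are 2 of the 19775 genes with a probe set of their own on the array, which carried 3 probe sets whose symbol was ND2 or ATP6, of 54613 probe sets that were not controls: 1 for ND2 and 2 for ATP6. Both genes were chosen by their measured levels: earlier results of these arrays had placed them lowest in the culture without folate. Their differences from that culture are therefore given as a description, without a test, and tests are given only among the cultures that had folate.

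RNA was measured on Affymetrix U133 Plus 2.0 arrays in 5 extracts of SKOV3ip1, with 3 arrays each, 15 in all. The extract titled no MTF came from cells grown for 7 days without folate. The other 4 came from cells grown for 7 days with folic acid, at 2 to 10 nM (nm as written in the labels): 5-MTF had no antibody, 5-MTF+004 had the control antibody 004 for 24 hours, 5-MTF+003 had the 003 antibody for 24 hours, and the extract titled MTF+MORAb0003 had an antibody labelled MORAb003 for 24 hours. The titles use MTF where the growth text says folic acid, and whether 003 and MORAb003 name one antibody is not stated. The 3 arrays of a condition were aliquots of 1 extract from 1 culture. Each p-value below therefore measures the error of hybridising one extract's RNA, and compares extracts rather than conditions. In such bulk RNA, fewer cells of a type and less RNA per cell cannot be told apart.

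ND2 encodes a membrane subunit of respiratory complex I, which takes electrons from NADH and pumps protons across the inner mitochondrial membrane. ATP6 encodes subunit a of ATP synthase, which forms the path by which those protons return while ATP is made. Both are read from the same strand of the circular mitochondrial DNA by the mitochondrial RNA polymerase, as part of long transcripts that are cut at transfer RNAs into separate messages. ATP6 shares its message with ATP8, which it overlaps, and is followed by COX3. Mitochondrial translation uses folate-derived carbon, since the initiator methionyl-tRNA is formylated and some mitochondrial transfer RNAs carry a folate-dependent modification.

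The RefSeq table (GRCh38.p14) lists 41 nuclear pseudogenes of ND2 and 31 of ATP6, which are near copies of the mitochondrial genes. Probe sets were not mapped to them here, so the share of each signal that such copies give was not measured.

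Values are the deposited log2 expression values, which ran from 4.00 to 15.5 with array medians between 6.53 and 6.67. Replicate 1 of 5-MTF+004 stood apart from the other arrays: its best correlation with an array of its own extract was 0.950, against at least 0.995 for the other 14, and results that rest on it are given with and without it. Of 10 markers of epithelial ovarian cancer cells, 9 lay at or above the median of all probe sets in every extract, with EPCAM, KRT18, PAX8 and FOLR1 among them and mesothelin (MSLN) below. The summed log2 level of this list was 16.0 to 16.1 in no MTF, 15.7 to 16.1 in 5-MTF+004 and 16.2 to 16.3 in MTF+MORAb0003. For leukocyte markers, 3 of 7 measured genes reached that median in every extract, and their summed log2 level ran from 9.40 to 9.98 over the 15 arrays. Of 9 markers of fibroblasts and endothelium, 6 or 7 reached it, with summed log2 levels from 10.59 to 11.04.

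ND2 was among the brightest signals on every array, between percentiles 99.0 and 99.6 of all probe sets. In no MTF its probe set (1553551_s_at) read 12.82, 12.76 and 12.67 on the log2 scale. In 5-MTF it read 13.89, 13.95 and 13.83. In 5-MTF+004 the values were 13.44, 13.71 and 13.72. All no MTF arrays lay below all 12 arrays of the folate-fed extracts, and within those 12 the 5-MTF arrays lay above the rest. The share of all genes with 5-MTF above the rest in this way was not counted. In 5-MTF+003 ND2 read 13.48, 13.42 and 13.44. In MTF+MORAb0003 it read 13.48, 13.55 and 13.39. Those antibody extracts overlapped each other and overlapped 5-MTF+004 only through its replicate 1.

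ATP6 was brighter still, between percentiles 99.4 and 99.8, in the brighter of its probe sets (1553567_s_at). In no MTF this probe set read 13.18, 13.15 and 13.30. In 5-MTF it read 14.19, 14.19 and 14.24. In 5-MTF+004 it read 13.92, 14.19 and 14.10. Again every no MTF array lay below every folate-fed array, while 5-MTF+004 reached up to the 5-MTF values. In 5-MTF+003 ATP6 read 14.05, 13.97 and 13.98. In MTF+MORAb0003 it read 13.83, 13.79 and 13.65. The MTF+MORAb0003 arrays lay below all others that had folate (19.6% of all genes had no overlap below 5-MTF+004), and 5-MTF+003 lay inside the range of 5-MTF+004.

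**Figure D1:**
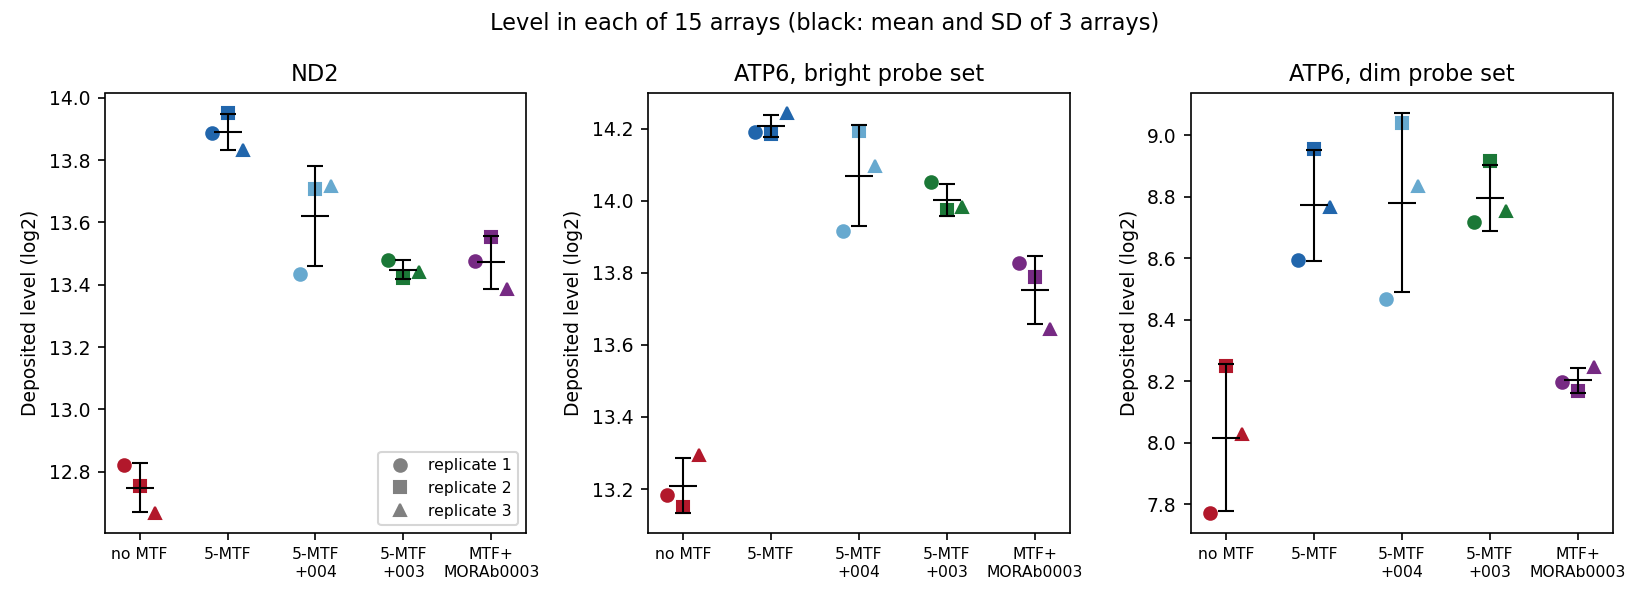
Deposited log2 level (vertical axis) of the ND2 probe set and both ATP6 probe sets in the 5 extracts (horizontal axis), one point per array, with the mean of 3 arrays and its SD. For ND2 and the brighter ATP6 probe set, the 3 no MTF arrays sit below all 12 folate-fed arrays. In the dimmer ATP6 probe set, no MTF and MTF+MORAb0003 overlap.

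The dimmer ATP6 probe set (242131_at) lay between percentiles 72.5 and 85.5. It read 7.77, 8.25 and 8.03 in no MTF. It read 8.60, 8.96 and 8.77 in 5-MTF, and 8.47, 9.04 and 8.83 in 5-MTF+004. In 5-MTF+003 the values were 8.72, 8.92 and 8.75, and in MTF+MORAb0003 they were 8.20, 8.17 and 8.25. For this probe set the no MTF arrays were not separate from MTF+MORAb0003, whose values lay at the top of the no MTF range. The ordering with no MTF as a separate, lowest extract thus held for 1 of the 2 ATP6 probe sets.

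The differences that chose the genes were as follows. ND2 averaged 12.75 ± 0.08 (SD, n = 3 arrays) in no MTF and 13.89 ± 0.06 in 5-MTF, a log2 difference of -1.14, so that its linear signal in no MTF was 45.3% of that in 5-MTF. ATP6 averaged 13.21 ± 0.08 in no MTF and 14.21 ± 0.03 in 5-MTF, a difference of -0.997, or 50.1% of the 5-MTF signal. Among 14369 genes bright enough to be tested, ND2 ranked 21 and ATP6 ranked 58 from the lowest difference. Against 5-MTF+004 the log2 differences of no MTF were -0.87 for ND2 and -0.86 for ATP6, and against 5-MTF+003 they were -0.70 and -0.79. Against MTF+MORAb0003 they were -0.72 for ND2 and -0.54 for ATP6. These comparisons share the no MTF arrays. No MTF had the lowest extract mean in 12.4% of the genes tested, and all 3 of its arrays lay below all folate-fed arrays in 0.717%, or 103 genes, ND2 and ATP6 included. The mitochondrially encoded genes COX1, COX2 and ND4 were separate in the same way. Their highest no MTF arrays read 14.42, 13.89 and 14.44, and their lowest folate-fed arrays 14.58, 14.01 and 14.53. COX3 and ND6 were not separate.

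The place of these differences among all genes depended on the folate-fed extract used. Against 5-MTF+003, ND2 ranked 4 and ATP6 ranked 2 from the lowest of 14369. Against 5-MTF+004 they ranked 14 and 18. Against MTF+MORAb0003, ND2 ranked 1910 and ATP6 ranked 2587, since many other genes differed more between those extracts. The dimmer ATP6 probe set differed from no MTF by -0.76 for 5-MTF, -0.76 for 5-MTF+004, -0.78 for 5-MTF+003 and -0.19 for MTF+MORAb0003, each as no MTF minus the other extract.

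Among the folate-fed extracts, which the choice of genes did not use against each other, ND2 was lower in both the 003 and the MORAb003 extract than in 5-MTF. In 5-MTF+003 ND2 averaged 13.45 ± 0.03 and fell by 0.44 (SE 0.099, limma adjusted p = 0.0305), to 73.6% of the 5-MTF signal. In MTF+MORAb0003 it averaged 13.47 ± 0.08 and fell by 0.42 (SE 0.099, limma adjusted p = 0.017), to 74.8%. No array of either extract overlapped 5-MTF for ND2, as was so for 24.5% of all genes below 5-MTF in 5-MTF+003 and 28.8% in MTF+MORAb0003. ND2 in 5-MTF+004, at 13.62 ± 0.16, was -0.27 from 5-MTF with an adjusted p of 0.418. Of the 14369 genes tested, 1.98% were lower at that threshold in 5-MTF+003 than in 5-MTF, and 4.7% were lower in MTF+MORAb0003. No gene passed in 5-MTF+004 against 5-MTF by limma, although 1276 had an unadjusted p under 0.05. These 3 comparisons share the 5-MTF arrays.

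ATP6 was lower than 5-MTF in the MORAb003 extract. There it averaged 13.75 ± 0.09 and fell by 0.45 (SE 0.096, limma adjusted p = 0.00968), to 73.0% of the 5-MTF signal. In 5-MTF+003 it averaged 14.0 ± 0.04, and its difference of -0.20 from 5-MTF had an adjusted p of 0.238. In 5-MTF+004 it averaged 14.07 ± 0.14, with a difference of -0.14 and an adjusted p of 0.419. Against the control antibody, ATP6 fell by 0.32 in MTF+MORAb0003 (limma adjusted p = 0.0223), to 80.3%, where 11.9% of all genes were lower. In 5-MTF+003 the difference from 5-MTF+004 was -0.066 (adjusted p = 0.725).

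ND2 did not pass against the control antibody: it differed from 5-MTF+004 by -0.17 in 5-MTF+003 (adjusted p = 0.332) and by -0.15 in MTF+MORAb0003 (adjusted p = 0.238). Set against each other, the 003 and MORAb003 extracts differed by -0.024 for ND2 (003 minus MORAb003, adjusted p = 0.86). ATP6 was 0.25 higher in 5-MTF+003 than in MTF+MORAb0003 (limma adjusted p = 0.0478), where 22.5% of all genes were higher. In order of mean, ND2 ran 5-MTF, 5-MTF+004, MTF+MORAb0003, 5-MTF+003, and no neighbours in that order passed the test. ATP6 ran 5-MTF, 5-MTF+004, 5-MTF+003, MTF+MORAb0003, and of these neighbours only the last pair passed.

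Array 1 of 5-MTF+004 enters each of these tests through the shared estimate of error. Without it, ND2 in 5-MTF+003 against 5-MTF had an adjusted p of 0.000175 and ATP6 one of 0.0322, so that both genes passed, and 22.1% of all genes were then lower in that comparison. Against 5-MTF+004, ND2 was then -0.26 in 5-MTF+003 (adjusted p = 0.0171) and -0.24 in MTF+MORAb0003 (adjusted p = 0.0188), and ATP6 was -0.39 in MTF+MORAb0003 (adjusted p = 0.000913). The shares of all genes lower in these comparisons were 18.5% and 22.5%. ATP6 in 5-MTF+003 did not pass against 5-MTF+004 without that array either (-0.14, adjusted p = 0.192).

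Several calls depended on single arrays. Leaving out each of the 15 arrays in turn, the fall of ND2 in 5-MTF+003 against 5-MTF was lost in 8 fits, with adjusted p from 0.0525 to 0.156. These were the fits without any 1 of the 6 arrays compared, without no MTF replicate 2 and without MTF+MORAb0003 replicate 1. Most other genes lost their calls there too: 441 genes passed in this comparison with all arrays. Without 5-MTF replicates 1, 2 or 3, 1, 142 and 1 passed, and without 5-MTF+003 replicates 1, 2 or 3, 3, 1 and 156. Without no MTF replicate 2 it was 247, and without MTF+MORAb0003 replicate 1 it was 248. The ND2 difference of MTF+MORAb0003 from 5-MTF was lost without 5-MTF replicate 2 and without MTF+MORAb0003 replicates 1 or 3 (adjusted p 0.0624 to 0.0845). Of all genes, 11.1% passed there in either direction with all arrays, and 3.65%, 3.96% and 6.12% in those fits, in that order. For ATP6, the difference of MTF+MORAb0003 from 5-MTF was lost without 5-MTF replicate 3 (adjusted p = 0.0502), and that from 5-MTF+004 without 5-MTF+004 replicate 2 or MTF+MORAb0003 replicates 2 or 3 (0.0543 to 0.0871). The ATP6 difference between 5-MTF+003 and MTF+MORAb0003 was lost in 13 of the 15 fits and passed only without 5-MTF+004 replicate 1 or 2.

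The dimmer ATP6 probe set was tested in a separate fit over all probe sets, added after the values were seen. In MTF+MORAb0003 it fell by 0.57 against 5-MTF (SE 0.15, limma adjusted p = 0.0261) and by 0.58 against 5-MTF+004 (adjusted p = 0.0119), where 4.92% and 12.8% of probe sets were lower. It was 0.59 higher in 5-MTF+003 than in MTF+MORAb0003 (adjusted p = 0.00695), where 22.7% of probe sets were higher. The first of these was lost in 5 of the 15 fits that left out an array, and both others passed in all 15. In 5-MTF+003 the probe set stood 0.023 from 5-MTF (adjusted p = 0.949). Both ATP6 probe sets were thus lower in MTF+MORAb0003 than in 5-MTF and 5-MTF+004, and neither passed for 5-MTF+003 against 5-MTF with all arrays included.

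The balance between ND2 and ATP6 was compared within arrays. The within-array log2 difference of ND2 minus ATP6 (bright probe sets) averaged -0.32 in 5-MTF, -0.28 in MTF+MORAb0003, -0.45 in 5-MTF+004 and -0.46 in no MTF. In 5-MTF+003 it was -0.55 ± 0.02. Against 5-MTF the 5-MTF+003 value differed by -0.24, and against MTF+MORAb0003 by -0.27, each with no overlap and an exact two-sided permutation p of 0.1, the smallest that 3 against 3 arrays can give. Against 5-MTF+004, 5-MTF+003 differed by -0.11 and MTF+MORAb0003 by 0.17, each also with no overlap and an exact permutation p of 0.1. The difference for MTF+MORAb0003 against 5-MTF was 0.035 (exact permutation p = 0.6), and that for 5-MTF+004 against 5-MTF was -0.13 (exact permutation p = 0.2). Of the 6 pairs of folate-fed extracts compared in this way, none could reach 0.05. How often other pairs of genes show no overlap in this measure was not counted, so a lack of overlap does not set ND2 and ATP6 apart. The within-array differences are not a ratio of transcript numbers, since levels of different probe sets are not on one scale.

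Of the 13 protein genes of the mitochondrial genome in RefSeq, 7 had a probe set under their symbol alone, and the 5 besides ND2 and ATP6 were ND4, ND6, COX1, COX2 and COX3. ND4 and ND6 are complex I subunits, and COX1 to COX3 form the catalytic core of cytochrome c oxidase. In no MTF minus 5-MTF the log2 differences were -0.53 for COX2, -0.39 for COX1, -0.39 for ND4, -0.28 for COX3 and -0.026 for ND6, all nearer 0 than those of ND2 and ATP6. The second probe sets of COX2 and ND4 gave -0.49 and -0.62. In no MTF minus 5-MTF+003, ND6 stood at -0.69, beside -0.70 for ND2 and -0.79 for ATP6. From the lowest of 14369 genes ND6 ranked 5 there, COX2 (-0.49) 36, COX3 (-0.38) 165, ND4 (-0.27) 700 and COX1 (-0.21) 1326. ND6 was higher in no MTF than in 5-MTF+004 and MTF+MORAb0003, by 0.53 and 0.94. The mean levels of COX1, 14.41 in no MTF and 14.81 in 5-MTF, and of ND4, 14.41 and 14.80, lay closer to the highest value of any probe set than those of ND2 did. The share that a ceiling of the scanner may have in the smaller no MTF minus 5-MTF differences was not tested. COX3, at 11.39 in no MTF and 11.67 in 5-MTF, and ND6, at 10.40 and 10.43, were dimmer than ND2 in both extracts.

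**Figure D2:**
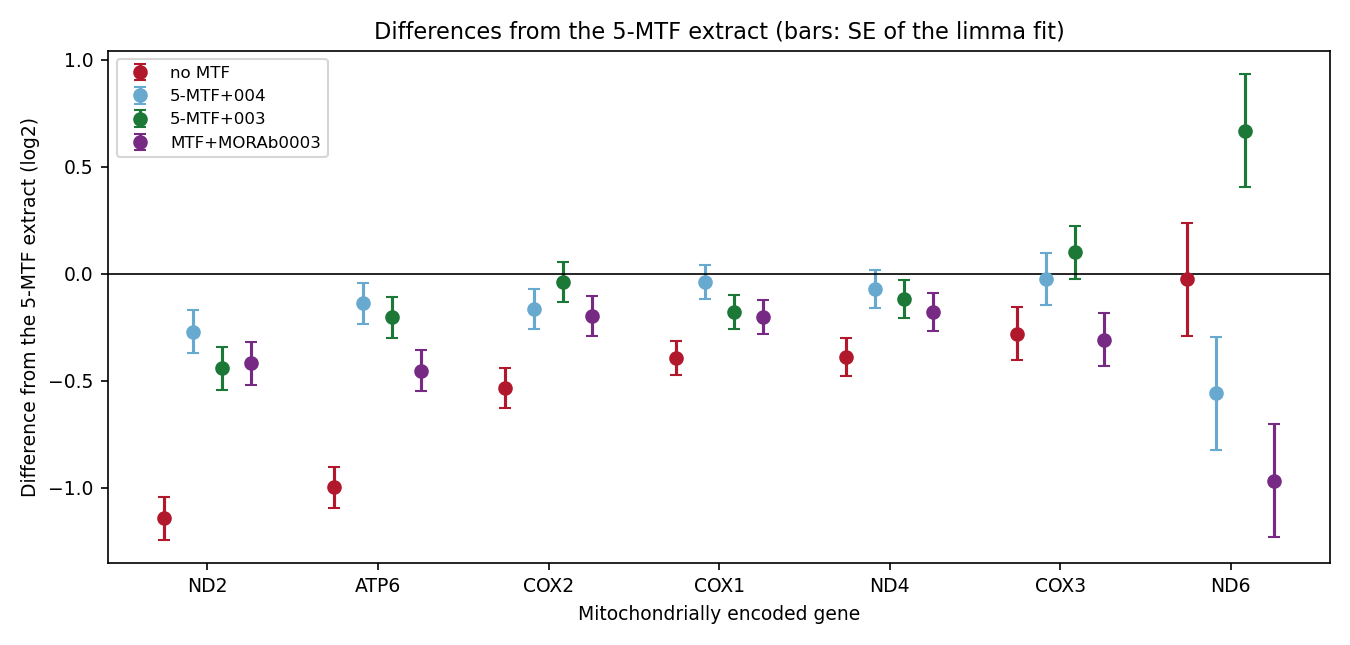
Log2 difference from 5-MTF (vertical axis) of the 7 mitochondrially encoded genes with a probe set of their own (horizontal axis), for each of the other 4 extracts, with the limma standard error as bars. The no MTF points are a description. ND2 and ATP6 lie furthest below 0 in no MTF, and ND6 lies above 0 in 5-MTF+003 and far below it in MTF+MORAb0003.

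Set against 5-MTF, these 5 genes gave 0 calls in the 003 extract and 1, lower, in the MORAb003 extract. Of all genes, 1.09% were higher and 1.98% lower in 5-MTF+003 than in 5-MTF, and 6.43% and 4.7% in MTF+MORAb0003. In 5-MTF+003 against 5-MTF none of the 5 passed (limma, adjusted p of 0.219 for COX1, 0.847 for COX2, 0.67 for COX3, 0.452 for ND4 and 0.165 for ND6). In MTF+MORAb0003 against 5-MTF, ND6 alone passed, falling by 0.97 (adjusted p = 0.0321), and was lost in 6 of the 15 fits that left out an array. The differences there were -0.20 for COX1, -0.20 for COX2, -0.31 for COX3 and -0.18 for ND4. Without replicate 1 of 5-MTF+004 all 5 were lower in MTF+MORAb0003, where 20.9% of all genes were lower, and in 5-MTF+003 1 was higher and 1 lower (15.5% and 22.1% of all genes). The second ND4 probe set fell by 0.32 in MTF+MORAb0003 against 5-MTF (adjusted p = 0.0231, lost in 5 of 15 fits), and the second COX2 probe set stood at -0.21 (adjusted p = 0.113). COX3 was 0.41 higher in 5-MTF+003 than in MTF+MORAb0003 (limma adjusted p = 0.0163, lost in 3 fits), where 22.5% of all genes were higher.

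ND6, which alone among the mitochondrial protein genes is read from the opposite strand, followed another order. It read 10.42, 10.26 and 10.53 in no MTF and 10.46, 10.43 and 10.40 in 5-MTF. It read 11.15, 11.10 and 11.05 in 5-MTF+003 and 9.36, 9.46 and 9.57 in MTF+MORAb0003. In 5-MTF+004 it read 8.96, 10.47 and 10.18, with the low value on the array that stood apart. No MTF and 5-MTF overlapped for ND6, the 5-MTF+003 arrays were the highest, and those of MTF+MORAb0003 lay below all others but that array. Lying without overlap below 5-MTF in MTF+MORAb0003 was common to 28.8% of all genes. The share of genes with the whole order of ND6 was not counted. ND6 was 1.64 higher in 5-MTF+003 than in MTF+MORAb0003 (limma adjusted p = 0.000358), where 22.5% of all genes were higher. In 5-MTF+003 it was 1.23 higher than in 5-MTF+004 (limma adjusted p = 0.0207, lost in 3 of 15 fits that left out an array), where 5.19% of all genes were higher. The latter difference was 0.77 without that array. Against 5-MTF the 5-MTF+003 difference was 0.67 (SE 0.26, limma adjusted p = 0.165). Without that array the adjusted p was 5.3e-05, where 15.5% of all genes were higher.

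Across the arrays, ND2 and ATP6 varied together with ND4 and COX1. Over the 15 arrays ND2 had a Pearson r of 0.95 with ATP6, 0.94 with COX1, 0.92 with ND4 and 0.86 with COX2, against 0.47 with COX3 and -0.03 with ND6. Over the 12 folate-fed arrays these were 0.79, 0.85, 0.75, 0.44, 0.16 and 0.18. ATP6 gave 0.96 with ND4, 0.94 with COX1, 0.92 with COX2, 0.58 with COX3 and 0.14 with ND6 over the 15 arrays, and 0.87, 0.82, 0.68, 0.46 and 0.55 over the 12. The 15-array values include the no MTF arrays that chose both genes. The points are aliquots of 5 extracts, so these coefficients describe the arrays only. One further probe set carried the symbols SH3KBP1 and ND3 together and was attributed to neither.

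Nuclear genes that supply the same complexes, or that maintain, transcribe and process mitochondrial DNA and RNA, were set beside ND2 and ATP6 in 7 lists with 115 tested genes. In no MTF minus 5-MTF, their median log2 difference was -0.11, against 0.01 for all genes. None of the 115 was as low as ND2 or ATP6 in that difference, where 0.139% of all genes were lower than ND2 and 0.397% lower than ATP6, so that few or none of 115 genes of any kind would be. The lowest was the mitochondrial methionyl-tRNA formyltransferase MTFMT at -0.95. Against 5-MTF+004 and 5-MTF+003 none was as low either, where at most 17 and 3 of all 14369 genes were. Against MTF+MORAb0003 15.7% of the 115 were lower than ND2 and 20.0% lower than ATP6, near the 13.3% and 18.0% of all genes. The no MTF values use the arrays that chose the genes and are a description.

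**Figure D3:**
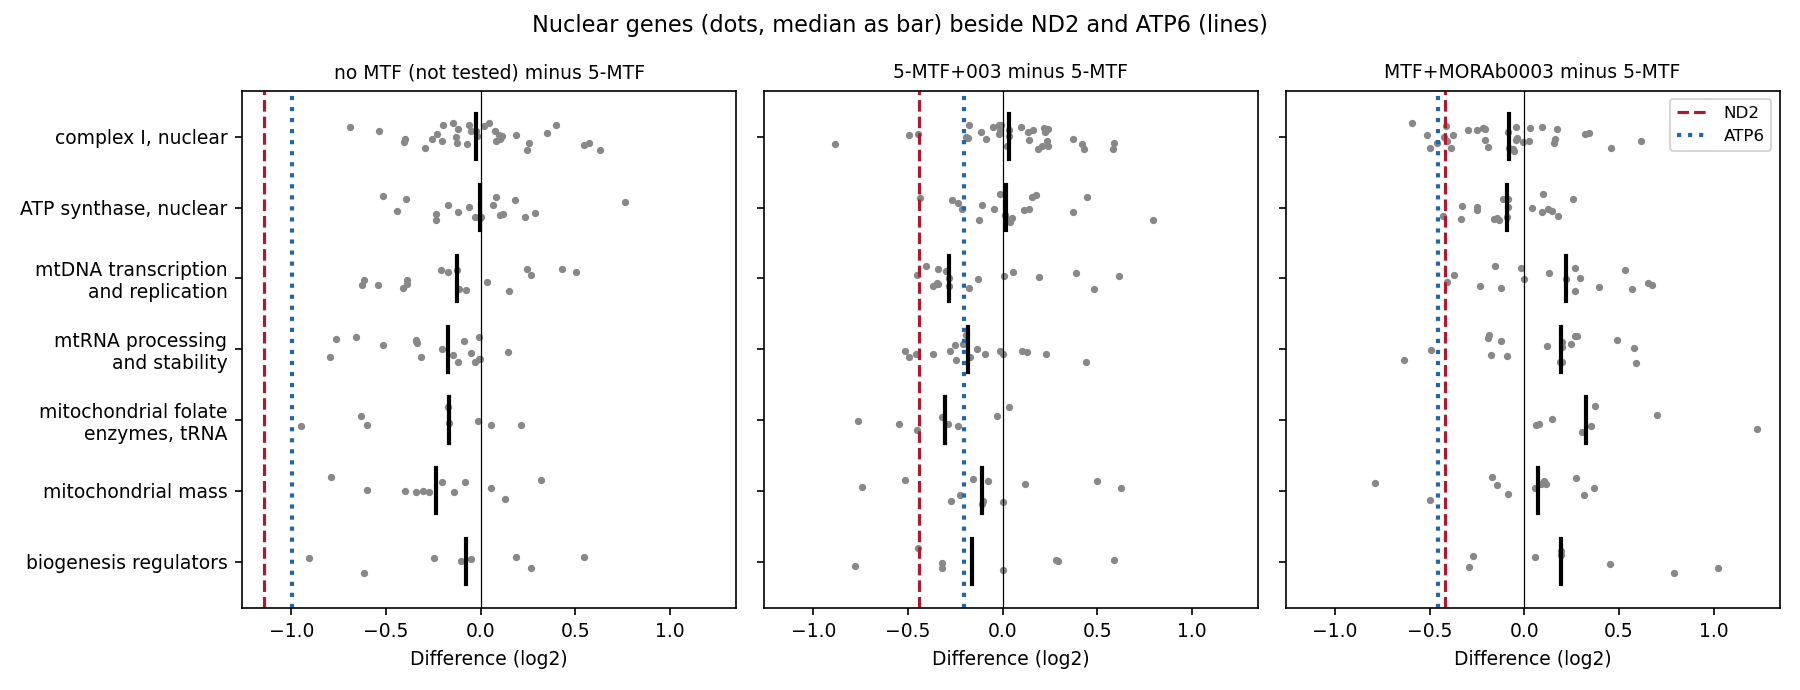
Log2 difference from 5-MTF (horizontal axis) of each tested nuclear gene, one point per gene, by list (vertical axis), in 1 panel each for no MTF, 5-MTF+003 and MTF+MORAb0003, with the median of each list as a bar and lines at the values of ND2 and ATP6. In no MTF all 115 points lie to the right of both lines, as do nearly all genes. In 5-MTF+003 12.2% lie to the left of the ND2 line (11.3% of all genes), and in MTF+MORAb0003 8.7% (5.59% of all genes).

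Complex I subunits encoded in the nucleus, the partners of ND2, gave 0 calls of 33 tested in 5-MTF+003 against 5-MTF (median log2 difference 0.04), where 1.98% of all genes were lower and 1.09% higher. In MTF+MORAb0003 1 was higher and 7 were lower (median -0.08), where 4.7% of all genes were lower and 6.43% higher. NDUFS6, an accessory subunit of the electron-input arm, fell by 0.59 (limma adjusted p = 0.00275), and NDUFC1, a membrane-arm subunit, fell by 0.51 (adjusted p = 0.0212). NDUFB5, another membrane-arm subunit, was the gene that was higher, by 0.62 (adjusted p = 0.0241). Of these, NDUFS6 passed in all 15 fits that left out an array, NDUFC1 was lost in 6 and NDUFB5 in 5. ND2 fell in the same extract by 0.42, inside the range of these subunits. With replicate 1 of 5-MTF+004 left out, the counts were 11 higher and 5 lower in 5-MTF+003 and 4 higher and 12 lower in MTF+MORAb0003. Of all genes, 15.5% were then higher and 22.1% lower in the first comparison, and 23.3% higher and 20.9% lower in the second.

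ATP synthase subunits encoded in the nucleus, the partners of ATP6, gave 1 higher and 0 lower of 19 in 5-MTF+003 (median 0.02) and 0 higher and 1 lower in MTF+MORAb0003 (median -0.09). All genes gave 1.09% higher and 1.98% lower in the first comparison, and 6.43% and 4.7% in the second. ATP5F1D, the delta subunit of the central stalk, was 0.79 higher in 5-MTF+003 (limma adjusted p = 0.0276, lost in 5 fits). ATP5MC3, which encodes the c subunit of the membrane ring that faces ATP6, fell by 0.43 in MTF+MORAb0003 (adjusted p = 0.041, lost in 11 fits). In that extract ATP6 itself fell by 0.45. The counts without replicate 1 of 5-MTF+004 were 4 higher and 4 lower in 5-MTF+003 (all genes 15.5% and 22.1%), and 1 higher and 4 lower in MTF+MORAb0003 (23.3% and 20.9%).

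The genes that copy and transcribe mitochondrial DNA gave 1 call of 17 in 5-MTF+003 (median -0.28) and 0 in MTF+MORAb0003 (median 0.22). Of all genes, 1.09% were higher and 1.98% lower in the first, and 6.43% and 4.7% in the second. MRPL12, a ribosomal protein that also binds the mitochondrial RNA polymerase, was the call, 0.61 higher in 5-MTF+003 (limma adjusted p = 0.0492, lost in 12 fits). The polymerase POLRMT stood at 0.39 in 5-MTF+003 (adjusted p = 0.333) and -0.12 in MTF+MORAb0003 (adjusted p = 0.763). TFAM, which packages mitochondrial DNA and starts transcription, stood at -0.37 (adjusted p = 0.512) and 0.57 (adjusted p = 0.254), and both signs turned when its probe sets were averaged. This list without replicate 1 of 5-MTF+004 gave 4 higher and 6 lower in 5-MTF+003 (all genes 15.5% and 22.1%), and 8 higher and 3 lower in MTF+MORAb0003 (23.3% and 20.9%).

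Of 18 genes of mitochondrial RNA processing and stability, 0 passed in 5-MTF+003 (median -0.18) and 2 were lower in MTF+MORAb0003 (median 0.19), where 1.98% and 4.7% of all genes were lower. HSD17B10, a subunit of the mitochondrial ribonuclease P that frees messages from transfer RNAs, fell by 0.63 there (limma adjusted p = 0.00556) and passed in all 15 fits. FASTK, whose mitochondrial form is known to stabilise ND6 RNA, fell by 0.49 (adjusted p = 0.0162, lost in 4 fits). In 5-MTF+003 FASTK stood at 0.44 (adjusted p = 0.0562). LRPPRC, which stabilises mitochondrial messages, stood at -0.25 (adjusted p = 0.255) and 0.20 (adjusted p = 0.318), and the first was 0.03 when its probe sets were averaged. Leaving out replicate 1 of 5-MTF+004 gave 2 higher and 7 lower in 5-MTF+003 (all genes 15.5% and 22.1%), and 8 higher and 3 lower in MTF+MORAb0003 (23.3% and 20.9%).

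Genes that bring folate to mitochondria or use it on their transfer RNAs gave 0 calls of 8 in 5-MTF+003 (median -0.30) and 1 in MTF+MORAb0003 (median 0.33), where 6.43% of all genes were higher. That gene was SLC25A32, the mitochondrial folate carrier, 1.23 higher (limma adjusted p = 0.0319, lost in 6 fits). MTFMT stood at -0.77 in 5-MTF+003 (adjusted p = 0.179) and 0.70 in MTF+MORAb0003 (adjusted p = 0.166). Without replicate 1 of 5-MTF+004, 4 were lower in 5-MTF+003 (22.1% of all genes) and 4 higher in MTF+MORAb0003 (23.3% of all genes).

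Markers of mitochondrial mass, such as porins and import pores, gave 0 higher and 1 lower of 12 in both extracts (medians -0.11 and 0.071), where 1.98% and 4.7% of all genes were lower. In 5-MTF+003 the gene was VDAC1, the main porin of the outer membrane, which fell by 0.74 (limma adjusted p = 0.0271, lost in 5 fits). In MTF+MORAb0003 it was TOMM40, the channel of the outer-membrane import pore, which fell by 0.79 (adjusted p = 0.0262, lost in 4 fits). Of 8 regulators of mitochondrial biogenesis, 1 was higher in 5-MTF+003 (median -0.16) and 2 in MTF+MORAb0003 (median 0.19), where 1.09% and 6.43% of all genes were higher. PPRC1, a coactivator, was 0.59 higher in 5-MTF+003 (adjusted p = 0.038, lost in 11 fits). GABPA, a factor that activates respiratory chain genes, was 1.02 higher in MTF+MORAb0003 (adjusted p = 0.00867, lost in 1 fit), and MYC was 0.79 higher (adjusted p = 0.00621, lost in none). Without replicate 1 of 5-MTF+004 the mass markers gave 2 higher and 4 lower in 5-MTF+003, and 3 and 2 in MTF+MORAb0003. The regulators then gave 3 higher and 3 lower, and 4 and 2. All genes gave 15.5% higher and 22.1% lower, and 23.3% and 20.9%.

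Array controls of RNA integrity differed between the extracts. The gap between the 3′ and the 5′ probe sets of beta-actin, which widens as RNA is shorter or its labelling stops earlier, was 4.09 ± 0.16 in no MTF, 3.24 ± 0.13 in 5-MTF, 3.46 ± 0.31 in 5-MTF+004, 4.02 ± 0.10 in 5-MTF+003 and 2.42 ± 0.13 in MTF+MORAb0003 (log2, n = 3 arrays each). The gap of GAPDH ran in nearly the same order, at 2.37, 1.97, 2.05, 2.49 and 1.21. The widest gaps of beta-actin were those of no MTF and 5-MTF+003, and the narrowest was that of MTF+MORAb0003. With 1 extract per condition, the part of RNA integrity in any of the differences was not tested.

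**Figure D4:**
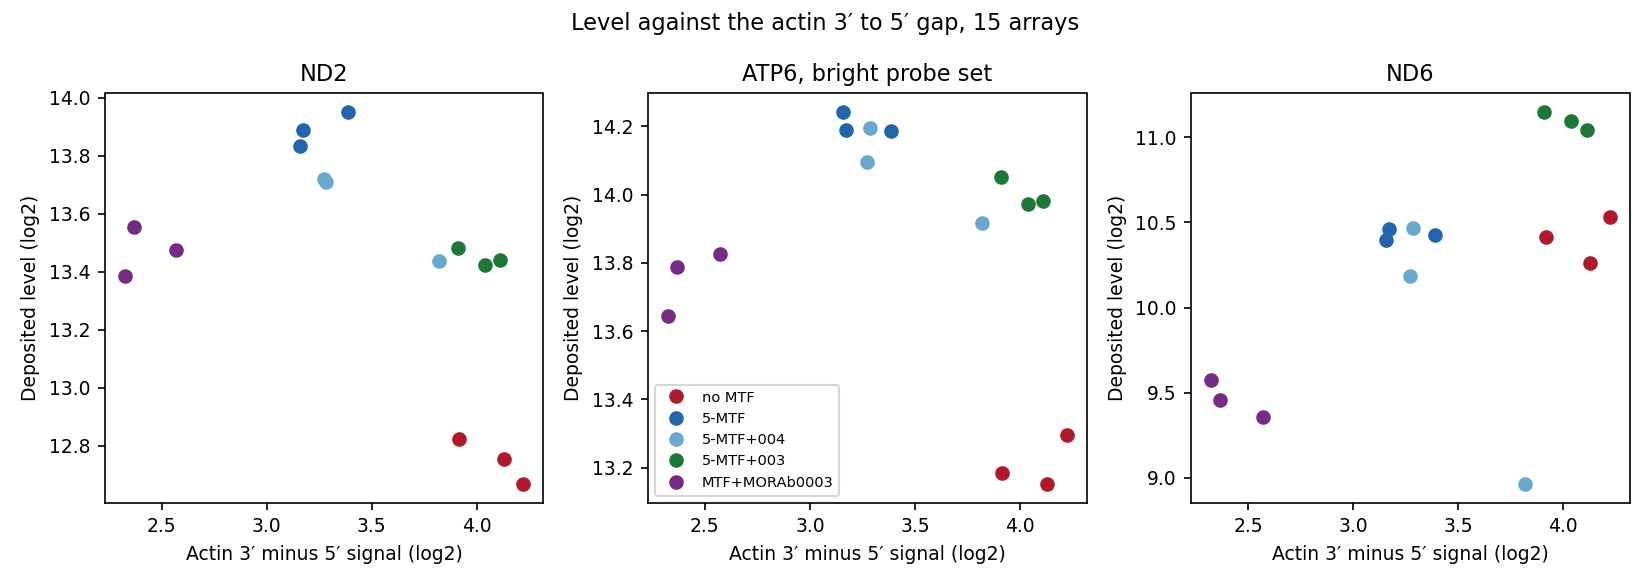
Log2 level (vertical axis) of ND2, ATP6 and ND6 against the log2 gap between the 3′ and 5′ beta-actin probe sets (horizontal axis), one point per array and one colour per extract. The no MTF and 5-MTF+003 arrays have the widest gaps, and ND6 is highest in 5-MTF+003 and, apart from 1 array of 5-MTF+004, lowest in MTF+MORAb0003.

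Over the 15 arrays the gap of beta-actin had a Pearson r of -0.50 with ND2, -0.28 with ATP6 and 0.60 with ND6, and over the 12 folate-fed arrays -0.09, 0.45 and 0.64. The Alu control probe set, which reads a repeat found in nuclear transcripts, averaged 15.35 in no MTF, 15.12 in 5-MTF, 15.12 in 5-MTF+004, 15.30 in 5-MTF+003 and 14.77 in MTF+MORAb0003, and had an r of 0.74 with ND6 over the 15 arrays. These coefficients describe 5 extracts with 3 aliquots each.

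The arrays of each extract carried 2 dates, replicates 1 and 2 on the first and replicate 3 on the second. On the first date alone ND2 in 5-MTF+003 differed from 5-MTF by -0.47 (limma adjusted p = 0.345) and ATP6 in MTF+MORAb0003 by -0.38 (adjusted p = 0.289). Of 14631 genes tested on that date, 0 passed in the first comparison and 0.157% in the second. On the second date, with 1 array per extract and no test, the ND2 and ATP6 differences were -0.39 and -0.60. The direction was the same on both dates for each difference that had passed.

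The genes whose levels followed ND2 and ATP6 most closely were ranked by the lower of their Pearson coefficients with the 2 genes over the 15 arrays. Mitochondrially encoded genes were left out of the ranking. HNRNPA2B1, a nuclear RNA-binding protein, came first with r of 0.919 with ND2 and 0.917 with ATP6. Its means were 12.79 in no MTF, 13.52 in 5-MTF, 13.44 in 5-MTF+004, 13.19 in 5-MTF+003 and 13.12 in MTF+MORAb0003. MPC2, a subunit of the mitochondrial pyruvate carrier, followed at 0.882, MRPL18, a protein of the mitochondrial ribosome, at 0.875, KPNA2, a nuclear import receptor, at 0.861 and EIF4A3, a core protein of the exon junction complex, at 0.858. Without replicate 1 of 5-MTF+004 the ranks of these 5, in that order, were 4, 5, 9, 21 and 2. Over the 12 folate-fed arrays alone the ranks of these 5 were 13, 36, 348, 526 and 460, so the closeness of the last 3 rested on including the no MTF arrays.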

How the data were processed

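Gene expression was measured on 15 Affymetrix U133 Plus 2.0 arrays. The values are log2 expression per probe set as deposited by the authors; the method of summary and normalization is not given in the sources used here. They were used without further normalization. Of 54675 probe sets, 62 controls were left out, and 41091 carried 1 gene symbol in the platform annotation, 1801 several and 11721 none; symbols were updated through RefSeq (41037 matched). Each of 19775 genes was represented by its brightest probe set, and 14369 genes with an extract mean of at least log2 6.60, the median of all probe sets, were tested. All columns were mapped to samples.

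Group means were fitted to all 15 arrays with limma 3.58.1 (lmFit and eBayes, 10 residual degrees of freedom) in R 4.3.3, and p-values were adjusted by Benjamini-Hochberg over all genes of a comparison, with a threshold of 0.05 and no fold minimum. The members, the lists and the tests were chosen with earlier results of these data known. Genes named from a list were its called members with the largest differences, with fixed uncalled examples. Precision is limited by 3 arrays per extract and 1 culture per condition. On simulated data for MTF+MORAb0003 against 5-MTF, over 14084 genes, the fit recovered 8 of 100 genes given a 1.3-fold change and 78 of 100 given a 2-fold change, and made 5 false calls. All other genes were simulated without a difference between extracts, whereas 11.1% of genes passed in this comparison in the data. The simulated counts therefore do not give the share recovered in the data. Alternatives were quantile normalization, other filters, the mean of a gene's probe sets, a fold minimum, the replicate number or array date as a block, each date alone, only the arrays compared, and leaving out each array.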

Additional observations from a re-analysis of the deposited data

How the results depend on the processing

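Of 324 alternative values of the 12 differences of ND2 and ATP6 between folate-fed extracts, 267 kept their direction and their side of the threshold. On the second date, which had no test, a value counted as kept if it stayed within its spread. Another 42 lost 1 of the 5 calls, 5 gained a call, 8 moved beyond their spread and 2 tested values changed direction. For no MTF, 140 of 152 stayed within their spread. A 1.5-fold minimum ended all 5 calls (ND2 -0.44 and -0.42 in 5-MTF+003 and MTF+MORAb0003 against 5-MTF; ATP6 -0.45 and -0.32 in MTF+MORAb0003 against 5-MTF and 5-MTF+004, and 0.25 for 5-MTF+003 minus MTF+MORAb0003). Replicate numbers did not pair the arrays (same-numbered deviations correlated from -0.55 to 0.52, median -0.07), and with the replicate block ND2 -0.44 (adjusted p = 0.0534) and ATP6 0.25 (0.0707) no longer passed. With the array date as a block ATP6 0.25 had an adjusted p of 0.0594. The first date alone ended the calls at ND2 -0.47 and -0.40 and ATP6 -0.38, -0.25 and 0.21, with fewer arrays. Against 5-MTF, 0 genes then passed in 5-MTF+003 and 0.157% in MTF+MORAb0003. In MTF+MORAb0003 against 5-MTF+004, 18.2% of all genes passed, and in 5-MTF+003 against MTF+MORAb0003 24.9%, in either direction. The second date alone gave ND2 -0.39 (5-MTF+003) and -0.12 (5-MTF+004) against 5-MTF, -0.33 (MTF+MORAb0003 against 5-MTF+004) and 0.056 (5-MTF+003 minus MTF+MORAb0003), and ATP6 -0.26 (5-MTF+003) and -0.60 (MTF+MORAb0003) against 5-MTF, -0.45 (MTF+MORAb0003 against 5-MTF+004) and 0.34 (5-MTF+003 minus MTF+MORAb0003). With only the 6 arrays compared, ATP6 -0.32 had an adjusted p of 0.199.

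Quantile normalization, which moved the median of all genes from -0.13 to 0.00 for 5-MTF+004 minus 5-MTF and from 0.04 to -0.10 for MTF+MORAb0003 minus 5-MTF+004, brought ND2 past the threshold against 5-MTF+004 (-0.22 and -0.28) and turned ND2 in 5-MTF+003 minus MTF+MORAb0003 to 0.068. The cause was not tested. With quantile normalization, 17.6% of all genes passed in 5-MTF+003 against 5-MTF+004, and 44.4% in MTF+MORAb0003 against 5-MTF+004, in either direction. In the main fit these shares were 5.96% and 35.1%. Leaving out 1 array gave, against 5-MTF, ND2 -0.47 to -0.41 and ATP6 -0.23 to -0.19 for 5-MTF+003, and ND2 -0.46 to -0.38 and ATP6 -0.49 to -0.40 for MTF+MORAb0003. Against 5-MTF+004 it gave ND2 -0.26 to -0.12 and -0.24 to -0.10, and ATP6 -0.39 to -0.25 for MTF+MORAb0003. For 5-MTF+003 minus MTF+MORAb0003 it gave ND2 -0.067 to 0.018 and ATP6 0.20 to 0.29. Against no MTF, quantile normalization gave ND2 -1.03 (5-MTF), -0.63 (5-MTF+003) and -0.56 (MTF+MORAb0003) and ATP6 -0.94 and -0.46 (5-MTF, MTF+MORAb0003); the probe-set mean gave ATP6 -0.88 and -0.36; the second date gave ND2 -1.05 (5-MTF+004) and -0.77 (5-MTF+003) and ATP6 -0.69 and -0.35 (5-MTF+003, MTF+MORAb0003), the last being -0.64 on the first date.

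Differences that had not passed changed sign for COX2 (5-MTF+003 minus 5-MTF, 0.0030 with quantile normalization; MTF+MORAb0003 minus 5-MTF+004, 0.030 on the first date and -0.069 to 0.037 leaving out an array), COX3 (5-MTF+004 minus 5-MTF, 0.16 with quantile normalization and -0.10 to 0.10), COX1 (the same, -0.071 to 0.0063), ND4 (5-MTF+003 minus 5-MTF+004, -0.085 to 0.0043), LRPPRC (0.026, probe-set mean) and TFAM (0.22 and -0.041, probe-set mean).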
